A study of Mus musculus with 4 samples.

Results

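The genes examined were 10 of the cytotoxic granule proteins of the mouse: the granzymes Gzma, Gzmb, Gzmc, Gzmd, Gzme, Gzmf, Gzmg, Gzmk and Gzmm, and perforin, Prf1. They were chosen by name, and an accessible region was counted for a member when that member was the nearest protein-coding gene. Of 91266 accessible regions in the series, 37 were assigned to these genes: 17 to the cluster on chromosome 14, 10 to Gzma and Gzmk on chromosome 13, and 10 to Gzmm and Prf1, which lie far apart on chromosome 10. The study compared chromatin accessibility, measured by ATAC-seq, in splenic natural killer (NK) cells of wild-type C57BL/6 mice cultured for 72 h in a high dose (2 samples) or a low dose (2 samples) of interleukin-15. In this assay a transposase cuts and tags DNA where chromatin is open, and about 75000 cells were used per biological replicate. The labels do not give the concentrations, the gate used to isolate the cells or whether animals were pooled.

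Granzymes are serine proteases that NK cells and cytotoxic T cells store in secretory granules, and perforin forms the pores through which they enter a target cell. Interleukin-15, on which NK cells depend, is known to raise the killing capacity of mouse NK cells, in part by raising granzyme B and perforin protein from messenger RNA that resting cells already hold. Granzyme B cleaves after aspartate and activates caspases, granzymes A and K cleave after basic residues, and granzyme M prefers methionine and leucine. Granzymes C to G are encoded beside granzyme B in the mouse and arose by duplication of neighbouring genes.

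The deposited tables give positions only: a list of all regions, and 2 lists of regions that the authors called as differing between the doses, up (3845 regions) and down (1275 regions). Which dose served as the reference is not stated, so the lists keep their deposited names here. There were 0 columns of values per sample, sequencing depth is unknown, and no value has a replicate error or a test. Accessible regions lay within 1000 bp of all 7 NK cell markers examined (Ncr1, Klrb1c, Klrd1, Klrk1, Il2rb, Eomes and Tbx21). The same held for 3 of 4 T cell, 2 of 4 B cell, 2 of 4 myeloid and 2 of 3 mast cell markers. The start of transcription lay inside a region for 5 of the 5 NK cell markers with a start in the RefSeq table. It did so for 0 of 3 T cell markers, 0 of 2 B cell markers, 1 of 3 myeloid markers (Itgam, which NK cells also express) and 2 of 3 mast cell markers (Kit and Cpa3).

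Across the 10 members, 4 of the 37 regions (10.8%) were in either list, beside 5.61% of all regions. The up list held 1 of the 37 regions, at Gzme, beside 4.21% of all 91266 regions. The down list held 3 of the 37, all of them inside Gzma, beside 1.40% of all regions. The other 33 regions were in neither list, among them every region assigned to Gzmb and Prf1, the best known effector pair. An unlisted region is one that the authors did not call, and without values per sample an absent call does not show equal accessibility at both doses.

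Of the 10 members, 8 had their RefSeq transcription start inside an accessible region, and Gzmf and Gzmg did not. Over 17492 protein-coding genes with a start in the same table, 54.7% had at least 1 start in a region. The 8 start regions had a median width of 615 bp, beside 970 bp for the 9212 regions of the series that hold a protein-coding start. Of the remaining 29 regions of the members, 13 overlapped a member away from its start, 10 lay upstream and 6 downstream. The spread over genes was uneven, from 9 regions at Gzmb, 6 at Gzma and 6 at Prf1 through 4 at Gzmk and 4 at Gzmm to 2 each at Gzmc, Gzmd, Gzme and Gzmf and 0 at Gzmg. The median over all protein-coding genes was 2 regions, and 25.1% had 0.

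**Figure D1:**
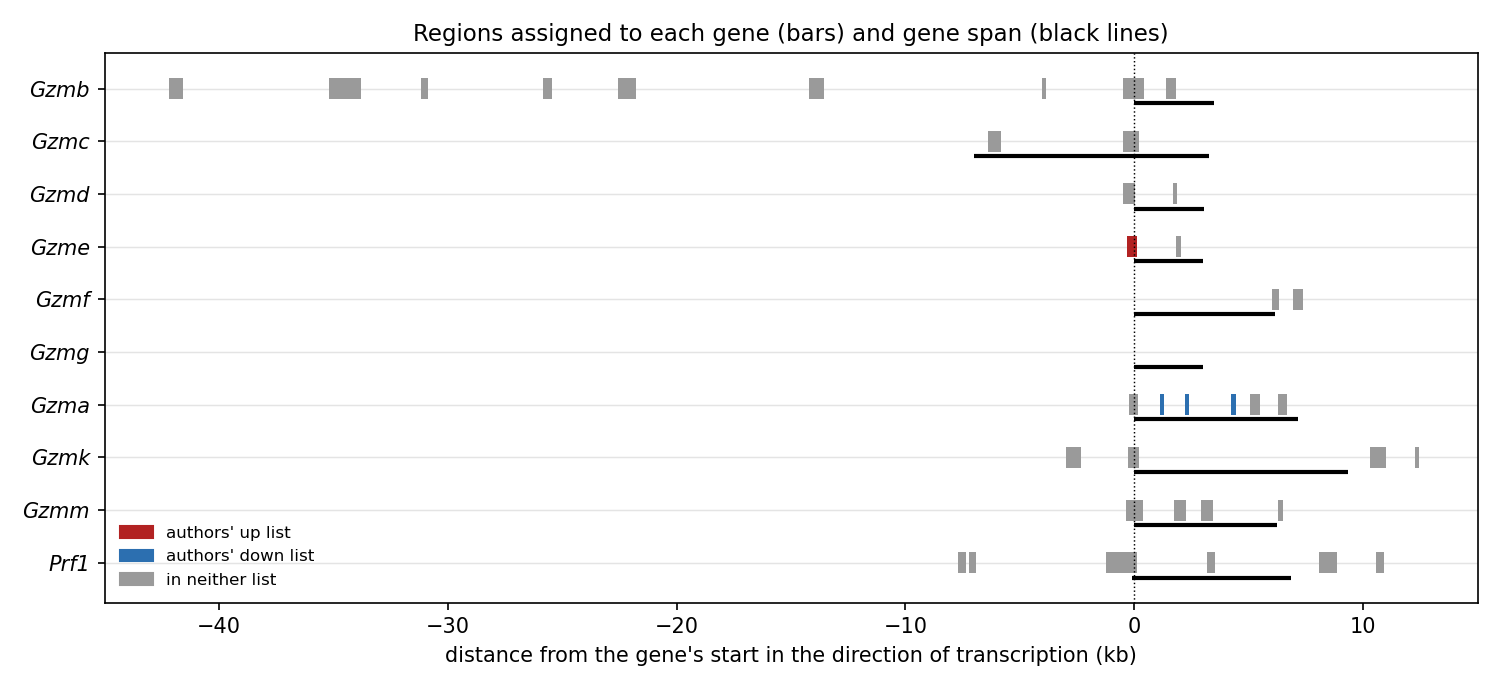
Accessible regions assigned to each of the 10 genes, placed by distance in kb from the gene's start in the direction of transcription; bar length is region width, black lines are gene spans, and colour gives the authors' list. The 1 up region lies over the start of Gzme, the 3 down regions lie inside Gzma after its start, and Gzmg has 0 regions.

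The chromosome 14 cluster comprised, in chromosomal order, Gzme, Gzmd, Gzmg, Gzmf, Gzmc and Gzmb, all on the minus strand. From the end of Gzme to the start of Gzmb it spanned 145 kb (GRCm38, chromosome 14, 56117619 to 56262334). This stretch held 12 regions, whichever gene they were assigned to, with a median gap of 9791 bp. The median gap between neighbouring regions over the series was 6906 bp. The largest gap in the cluster, 34.9 kb from 56133085 to 56168020, contained all of Gzmg and was larger than 87.6% of all gaps. Gzmn, a granzyme gene that was not among the members, had 2 regions beyond this gap, both unlisted.

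Gzme carried the only up region among the 10 members. This region, 450 bp wide at chromosome 14, 56120497 to 56120946, extended from 321 bp before to 128 bp after the start of Gzme. Up regions over a start were rare in the series: 63 of 3845 up regions (1.64%) held a protein-coding start, beside 10.6% of unlisted regions. The 64 genes with a start in an up region made up 0.366% of the 17492 genes with a start in the table. A second Gzme region, of 204 bp, lay 1824 to 2027 bp after the start and was unlisted.

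Gzmd, the neighbour and closest relative of Gzme, also had a region over its start and another inside the gene, neither of them listed. Its start region was 502 bp wide (56132583 to 56133084) and reached from 491 bp before to 10 bp after the start. Its other region, of 173 bp, lay 1683 to 1855 bp after the start. The pair thus matched in the number of regions, over the start and inside the gene, and differed in the authors' call at the start. The start regions also differed in extent, since that of Gzme reached from 321 bp before to 128 bp after its start.

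**Figure D2:**
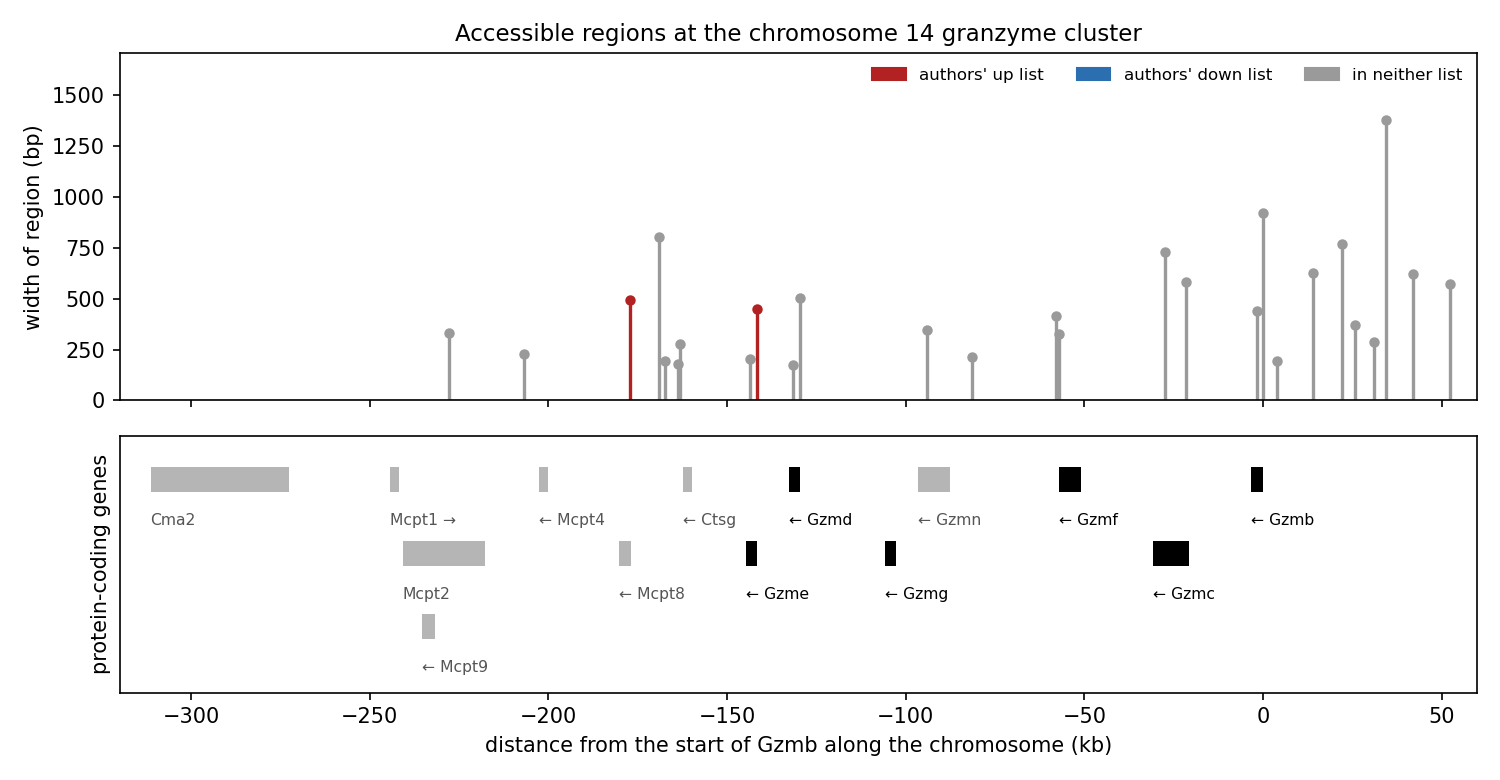
Accessible regions over the granzyme and mast cell protease genes of chromosome 14, placed by distance in kb from the start of Gzmb along the chromosome; height is region width in bp and colour is the authors' list, with genes below (black for the 6 members, arrows for the direction of transcription where known). The 2 up regions lie at the starts of Mcpt8 and Gzme, no region lies over Gzmg, and the widest region (1378 bp) lies upstream of Gzmb.

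Promoters of Gzmc, Gzmd, Gzme and Gzmg, 4 of the 5 alike promoters of the cluster, are shown because their accessibility calls differ: up at Gzme, unlisted at Gzmc and Gzmd, and no region at Gzmg. Each line gives the 250 bases before the RefSeq start (GRCm38.p6, chromosome 14, minus strand), written 5′ to 3′. The windows are chr14:56120626-56120875 for Gzme, chr14:56132594-56132843 for Gzmd, chr14:56159580-56159829 for Gzmg and chr14:56234658-56234907 for Gzmc. Capitals mark the octamer aligned with the cAMP response element (CRE) motif TGACGTCA of Gzmg.
Gzme: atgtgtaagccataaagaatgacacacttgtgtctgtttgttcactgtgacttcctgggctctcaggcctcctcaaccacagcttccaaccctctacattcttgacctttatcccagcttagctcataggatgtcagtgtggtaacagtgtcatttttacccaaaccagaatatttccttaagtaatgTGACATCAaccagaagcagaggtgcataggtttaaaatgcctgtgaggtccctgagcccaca
Gzmd: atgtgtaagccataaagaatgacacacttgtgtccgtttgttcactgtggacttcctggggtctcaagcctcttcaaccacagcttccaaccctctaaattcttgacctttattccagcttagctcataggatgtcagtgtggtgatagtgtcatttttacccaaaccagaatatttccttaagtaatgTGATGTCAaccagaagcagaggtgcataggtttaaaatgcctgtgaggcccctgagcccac
Gzmg: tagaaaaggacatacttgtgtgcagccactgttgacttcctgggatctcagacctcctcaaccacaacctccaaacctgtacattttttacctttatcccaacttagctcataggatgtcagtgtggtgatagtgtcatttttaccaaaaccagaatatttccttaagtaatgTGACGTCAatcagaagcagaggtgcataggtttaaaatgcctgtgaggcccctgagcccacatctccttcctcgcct
Gzmc: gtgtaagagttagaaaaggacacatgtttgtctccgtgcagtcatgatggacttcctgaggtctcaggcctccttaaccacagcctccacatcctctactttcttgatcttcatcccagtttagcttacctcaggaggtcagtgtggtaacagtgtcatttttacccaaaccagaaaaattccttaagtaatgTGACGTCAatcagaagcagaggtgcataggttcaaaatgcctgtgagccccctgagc

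The palindromic CRE motif TGACGTCA, bound by factors of the CREB and ATF families, was present in the promoter windows of Gzmc, Gzmf and Gzmg. It was found in 1.79% of all 32851 promoter windows of 300 bases (250 before and 50 after a start). In Gzme the aligned octamer, 62 to 55 bases before the start, differed from that of Gzmg by G5A. In Gzmd, 61 to 54 bases before the start, it differed by C4T. Positions are counted from 1 at the 5′ end of the Gzmg octamer. The 250 bases before the start lay wholly in an accessible region at Gzmc, Gzmd and Gzme, and at Gzmf and Gzmg 0 of the 250 did. A match of letters is a description and shows no binding.

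Over the 300-base windows, Gzmd and Gzme were identical at 93.4% of aligned positions, with 18 substitutions and 2 gap positions. The longest stretch they shared without a difference was 45 bases. Among the 10 pairs formed by Gzmc, Gzmd, Gzme, Gzmf and Gzmg, identity ranged from 73.5% to 93.4%, and the longest shared stretch of any pair, between Gzmd and Gzmg, was 76 bases. Gzmb stood apart, with 43.5% to 47.8% identity to those 5 windows, a range like that of the other pairs of members (40.3% to 50%). How reads matching more than 1 place were treated is not given in the sources used here. The part of read placement in the calls at Gzmc to Gzmg, and in the gap over Gzmg, was not tested.

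**Figure D3:**
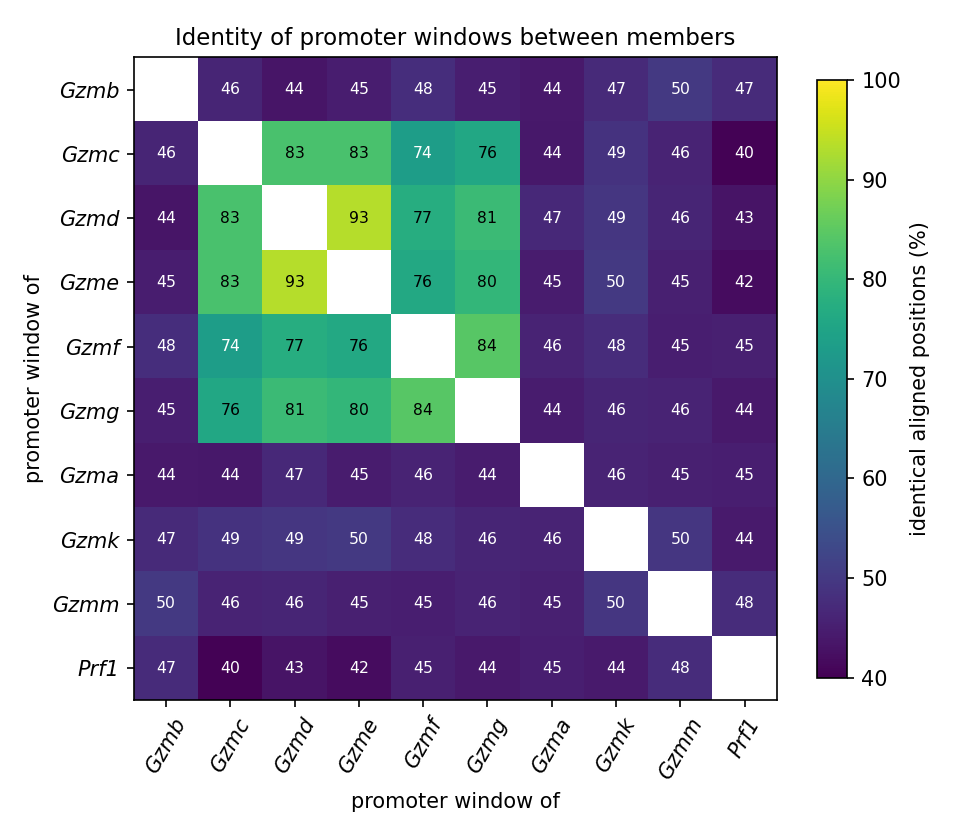
Identity between the 300-base promoter windows of the 10 members, as the percentage of identical positions in a global pairwise alignment. The 5 windows of Gzmc to Gzmg form a block from 73.5% to 93.4%, and every other pair lies between 40.3% and 50%.

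Gzmf and Gzmc, which follow in the cluster, had 2 regions each and none in a list, beside 5.61% of all regions. Those of Gzmf lay at its far end, one of 326 bp across the end of the gene and one of 416 bp 814 bp beyond it, and the nearest region was 6005 bp from its start. Gzmc had a start region of 728 bp (56234435 to 56235162). A second region of 580 bp, 5827 to 6406 bp before this start, lay inside the longer RefSeq span of Gzmc.

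Gzmb had the most regions of any member by nearest span, while by nearest start Gzmb and Gzma had 14 each. Of the 9 regions of Gzmb by nearest span, 0 were listed. With 5.61% of all regions in either list, a 0 among so few is near the background. The start region of Gzmb was 919 bp wide (56261910 to 56262828) and reached from 494 bp before to 424 bp after the start. It was wider than 88.2% of all regions and than 44.5% of the regions that hold a protein-coding start. A region of 439 bp lay inside the gene. The other 7 lay upstream, from 3842 to 41559 bp before the gene, in a stretch with no other protein-coding gene. The widest of them, 1378 bp at chromosome 14, 56296145 to 56297522, lay 33.8 kb upstream and was wider than 97.3% of all regions.

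The Gzmb promoter was searched for the same 8 motifs as the other windows. It is printed here as the 250 bases before the start (chr14:56262335-56262584, minus strand), with every match in capitals.
Gzmb: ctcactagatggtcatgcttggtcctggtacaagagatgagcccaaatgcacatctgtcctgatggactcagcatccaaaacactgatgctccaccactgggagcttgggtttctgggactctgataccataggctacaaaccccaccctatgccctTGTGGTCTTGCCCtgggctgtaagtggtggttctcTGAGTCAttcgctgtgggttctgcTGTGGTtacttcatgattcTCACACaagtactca

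The Gzmb window held RUNX (TGTGGT) matches 93 to 88 and 34 to 29 bases before the start, an AP-1 (TGANTCA) match at 58 to 52 and a T-box (TCACAC) match at 15 to 10. The first RUNX match overlapped an NF-kB (GGG, 5 bases of any kind, CC) match at 90 to 81. A STAT (TTCNNNGAA) match lay 37 to 45 bases after the start, outside the printed stretch. AP-1 was found in 7.81% of all windows, T-box in 14.5%, STAT in 8.30% and NF-kB in 50.8%, on either strand. Among the members, the AP-1 motif was found at Gzmb alone, T-box at Gzmb and Gzmk, and STAT at Gzmb and Gzmm.

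RUNX was the motif shared most widely, in 9 of 10 member windows (all but Gzmk) beside 16.8% of all windows. ETS (GGAAGT) followed, in 7 of 10 (Gzmc to Gzmg, Gzmk and Prf1) beside 23.8%. Gzmc to Gzmg share both through their common sequence: each of the 5 windows had 2 RUNX matches and 1 ETS match, so these 5 genes are not independent instances. The NFAT-like motif (GGAAAA) was found at Gzma and Gzmm, beside 23.4% of all windows.

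The flank of the cluster beyond Gzme holds Ctsg and the mast cell proteases. The other up region within 50 kb of a chromosome 14 member lay there, 494 bp wide at 56085027 to 56085520, over the start of Mcpt8, a protease known from basophils. It was 35.0 kb from the up region of Gzme, and 5 unlisted regions lay between the pair. The nearest down region was 1995099 bp from the up region of Gzme, at Dad1. Of the 9 neighbouring genes examined (Gzmn, Cma1, Cma2, Ctsg, Mcpt1, Mcpt2, Mcpt4, Mcpt8 and Mcpt9), 3 had no region, and 1 of their 14 regions was listed, near the 5.61% of all regions in either list. Of the 3 mast cell markers, Kit had 9 regions within 1000 bp, 1 of them up (4.21% of all regions were up), Cpa3 had 5, none listed, and Ms4a2 had 0. The part of other cells in the calls at Gzme and Mcpt8 was not tested.

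On chromosome 13, Gzma showed the opposite call. Granzyme A (chromosome 13, 113093824 to 113100981, minus strand) had 6 regions, all overlapping the gene. Of these, 3 were in the authors' deposited down list, and they followed one another with no unlisted region between them. In the direction of transcription they lay 1124 to 1290 bp, 2234 to 2393 bp and 4231 to 4466 bp after the start (113099691 to 113099857, 113098588 to 113098747 and 113096515 to 113096750). Gaps of 943 and 1837 bp separated them.

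The start region of Gzma was not listed. It was 392 bp wide (113100838 to 113101229), reached from 248 bp before to 143 bp after the start, and ended 980 bp from the first down region. Toward the end of the gene, 2 further unlisted regions of 428 and 386 bp followed, the first 603 bp from the last down region. The down calls were thus confined to the interior of the gene, between an unlisted start region and an unlisted distal part. Exons and introns were not annotated here.

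All 3 down regions of Gzma were narrow, at 167, 160 and 236 bp in the order given, while the narrowest region in the series was 150 bp. They were wider than only 3.97%, 2.73% and 20.5% of all regions. Of the 1275 down regions, 66 (5.18%) were no wider than 236 bp, and the median down region was 537 bp. Among the 18942 regions of the series up to that width, 0.348% were down. Runs of at least 3 consecutive down regions numbered 19 in the series and held 4.86% of all down regions. At least 3 assigned down regions were seen at 89 genes (0.543% of those with a region), and at 3 of the 868 genes with exactly 6 regions. The limits used in these counts were taken from Gzma, which is itself in each of them. The counts therefore describe its pattern and do not test it.

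Down calls were also present at NK cell markers. Of the 40 regions within 1000 bp of the 7 markers, 6 were down and 0 were up, beside 1.40% and 4.21% of all regions. At Ncr1, the gene of the activating receptor NKp46, 3 of 4 were down, while Klrb1c, which encodes NK1.1, had 2 of 4 and Il2rb, a chain of the interleukin-15 receptor, had 1 of 9. Klrd1, Klrk1, Eomes and Tbx21 had 0 in either list. The T cell, B cell and myeloid markers had only 4, 7 and 9 regions within 1000 bp, and 0 of them were listed. With 5.61% of all regions in either list, a count of 0 among so few is near the background. The part of the cell composition of the cultures in the down calls at Gzma was not tested.

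The Gzma promoter is printed for the contrast between its unlisted start region, which covered 248 of these 250 bases (chr13:113100982-113101231, minus strand), and the down regions that follow. Capitals mark an NFAT-like match 92 to 87 and a RUNX match 50 to 45 bases before the start, both on the opposite strand.
Gzma: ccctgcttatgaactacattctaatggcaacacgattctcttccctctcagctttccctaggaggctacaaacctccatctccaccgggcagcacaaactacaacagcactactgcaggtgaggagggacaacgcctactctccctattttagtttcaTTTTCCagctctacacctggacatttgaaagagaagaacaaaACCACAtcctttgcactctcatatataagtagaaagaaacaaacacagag

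**Figure D4:**
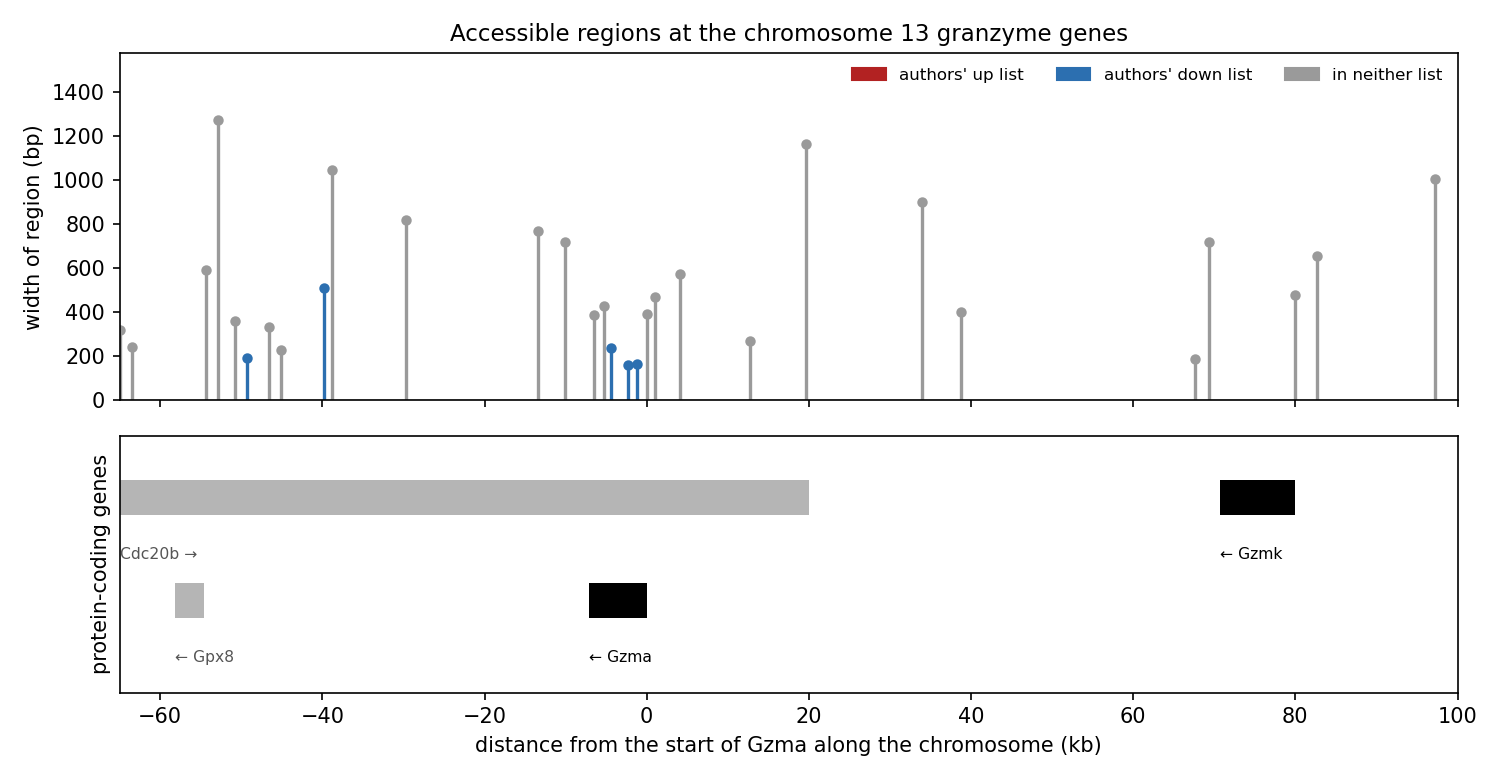
Accessible regions around Gzma and Gzmk on chromosome 13, placed by distance in kb from the start of Gzma along the chromosome; height is region width in bp and colour is the authors' list, with genes below. The 3 down regions inside Gzma are among the narrowest shown, a pair of further down regions lies within Cdc20b, and the regions at Gzmk are unlisted.

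Gzma lies inside the longer span of Cdc20b, a relative of the cell cycle gene Cdc20 transcribed from the other strand, and this bears on which gene takes a region. Regions 807 and 3782 bp before the start of Gzma (468 and 573 bp wide, both unlisted) were assigned to Cdc20b because they lie within it and outside Gzma. The 6 regions of Gzma also lie within Cdc20b and were given to Gzma because its ends are nearer. When regions were given to the nearest start of transcription, Gzma had 14 regions in place of 6, and the down count was again 3. Within 50 kb of Gzma, Cdc20b had 2 down regions of its own, 510 bp wide at 113060930 to 113061439 and 194 bp wide at 113051639 to 113051832. They lay 32.4 and 42.0 kb from the end of Gzma, with unlisted regions between. With the same 3 regions inside Gzma counted again, 5 of the 24 regions overlapping the span of Cdc20b were down, beside 1.40% of all regions. Of the 22 regions assigned to Cdc20b itself, 2 were down. The nearest up region was 241 kb from the down regions of Gzma, at Cspg4b.

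Gzmk, 70.6 kb from Gzma, had 4 regions and none in a list, beside 5.61% of all regions. Its start region measured 480 bp (113180756 to 113181235). A region of 656 bp lay 2344 bp upstream, and regions of 717 and 187 bp lay 956 and 2918 bp beyond its end. The median width of the 4 was 568 bp, beside 311 bp for the 6 regions of Gzma. The stretch from Gzma to Gzmk held 15 regions in 87.1 kb, or 172 per Mb, beside 82.9 per Mb in the chromosome 14 cluster.

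Neither gene on chromosome 10 had a listed region. With 5.61% of all regions in either list, a count of 0 among their 10 regions is near the background. Prf1 (61297751 to 61304684, plus strand) had 6, and its start region was the widest start region of the members, at 1376 bp (61296599 to 61297974). It reached 1237 bp upstream of the start and was wider than 97.3% of all regions and than 84.4% of the regions that hold a protein-coding start. Regions of 348 and 328 bp ended 7365 and 6913 bp before the start, 1 of 335 bp lay inside the gene, and regions of 773 and 338 bp lay 1245 and 3723 bp beyond its end. Within 50 kb, 20 regions belonged to other genes and 0 were listed, which among so few is also near the share of all regions.

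The Prf1 promoter is shown as the example of a wide, unlisted start region that covered all 250 bases (chr10:61297586-61297835, plus strand). Capitals mark ETS matches 198 to 193 and 108 to 103 bases before the start, a RUNX match at 130 to 125 and an NF-kB match at 23 to 14.
Prf1: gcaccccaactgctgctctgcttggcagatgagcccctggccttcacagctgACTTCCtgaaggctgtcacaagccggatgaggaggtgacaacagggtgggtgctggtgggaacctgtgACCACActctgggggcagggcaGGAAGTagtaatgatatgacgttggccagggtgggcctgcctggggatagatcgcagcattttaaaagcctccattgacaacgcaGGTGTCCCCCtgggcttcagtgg

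Gzmm (79689020 to 79695261, plus strand) had 4 unlisted regions. The start region was 759 bp wide (79688642 to 79689400). A pair of regions of 527 bp each lay 1735 and 2905 bp after the start, and 1 of 217 bp lay 40 bp beyond the end of the gene. Within 50 kb, 13 regions of other genes were all unlisted. With 5.61% of all regions in either list, a count of 0 among so few is near the background.

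Over the 37 regions, widths ran from 160 to 1378 bp with a median of 428 bp, beside 400 bp for the series (quartiles 252 and 653 bp). Medians were 450 bp on chromosome 14, 389 bp on chromosome 13 and 437.5 bp on chromosome 10. Width is a property of the authors' region calls and carries no dose information.

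**Figure D5:**
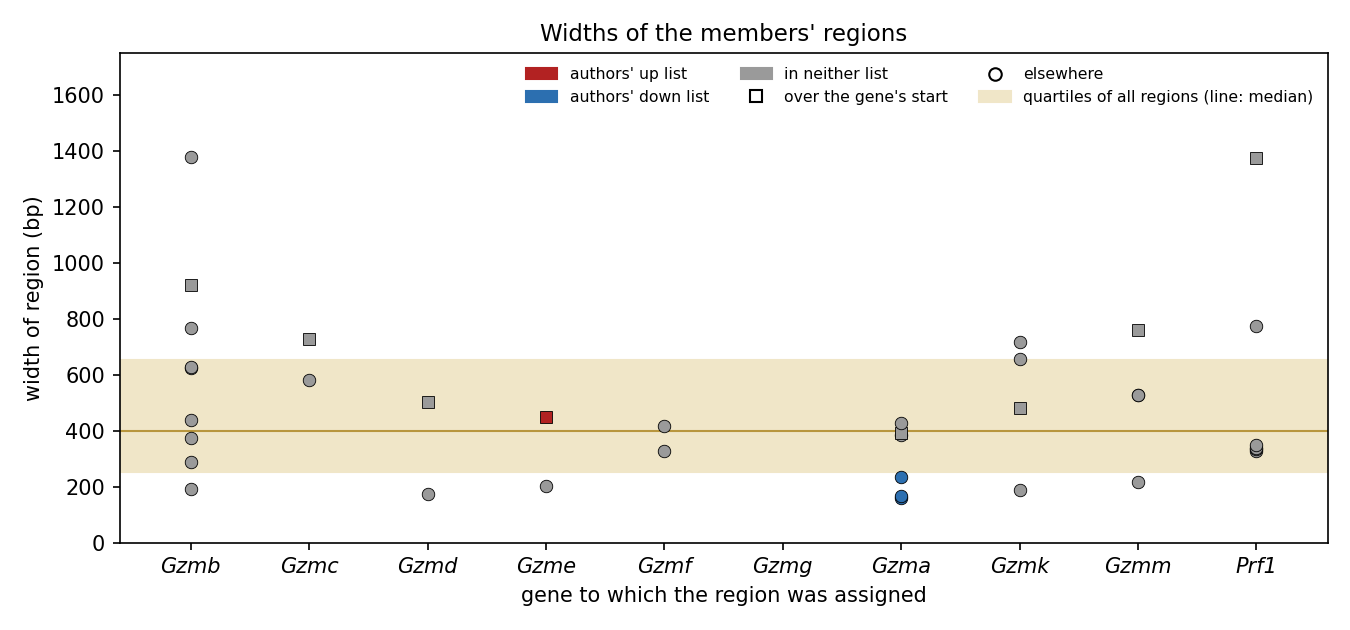
Widths in bp of the regions assigned to each gene (squares over the gene's start, circles elsewhere), coloured by the authors' list, with the quartiles and median of all regions as a band and line. The 3 down regions of Gzma lie below the lower quartile of 252 bp, while the up region of Gzme (450 bp) lies near the median of 400 bp.

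Genes that act with granzymes were described by the same counts. Those that process or store them (Ctsc, which removes their propeptide, Ctsh and the proteoglycan Srgn) had 27 regions, and the granzyme inhibitors of the serpin family (Serpinb6b, Serpinb9 and Serpinb9b) had 20. None of these 47 regions was listed. Genes of granule transport and fusion (Rab27a, Unc13d, Stx11, Stxbp2, Lyst, Lamp1, Nkg7 and Vamp7) had 46 regions, of which 1 was up, a region of 348 bp inside Lyst, and 0 were down. Together the lists held 1 of these 93 regions, beside 5.61% of all regions.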

How the data were processed

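ATAC-seq was measured in 4 samples, 2 per dose of interleukin-15. The authors deposited 3 tables of the whole series that hold other values than signal: the start, end and width of each region, and the positions of regions in their up and down lists. BWA, ArchR, MACS2 and HOMER 4.11.1 and the build mm10 (GRCm38) are named in the submitters' processing notes, without their roles. The peak settings, the pooling of samples, the differential test and its threshold are not given in the sources used here. The tables hold 0 columns of values per sample, so the planned test of the doses was not run.

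Starts in the full list were raised by 1. Every listed region was then identical to a region of that list, and coordinates are 1-based. Each region was given to the protein-coding gene (RefSeq, GRCm38.p6, 21887 placed genes) with the nearest span, ties going to the nearer gene end. Starts and promoters came from the RefSeq promoter table, which held all 10 members. The 5′-most start was used for Gzmm, which has 2. Windows were aligned globally with Biopython 1.88 (match 1, mismatch -1, gap opening -3, gap extension -0.5) and searched for 8 motifs (with CRE as TGACGTCA) on both strands. Assignment, alignment and search were tested on simulated data. The assignment test used isolated genes only. It did not try the rule for ties, by which the regions inside Gzma were assigned. All listed regions of the 10 members are named. The members and lists were chosen with earlier results of these data known.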

Additional observations from a re-analysis of the deposited data

How the results depend on the processing

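No paired analysis was possible because the 3 tables used here hold positions only, with no value per replicate. For that reason, normalization, count filters, leaving out a replicate and stricter thresholds were not run. The number of regions assigned to the 10 genes was 37. It became 57 by nearest start, 21 when only regions overlapping a member counted and 99 within 50 kb of a member. The counts of listed regions, 1 up and 3 down, held under the other rules tried and became 2 up and 5 down within 50 kb, because regions of Mcpt8 and Cdc20b then counted. Of the listed calls, those at Gzma rest on narrow regions of unknown depth, and that at Gzme on a promoter with near copies.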
